A study of Piaractus mesopotamicus with 6 samples.

Results

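The ligands, receptors and feedback inhibitors of the FGF, PDGF, VEGF, HGF, EGF, neurotrophin and midkine families were followed in pacu muscle, in culture and in the fish. Members were taken by gene symbol alone, ignoring case, from the symbol column of the assembled transcriptome, and the transcript with the highest mean over all 6 libraries stood for each symbol. The pattern matched 59 of 13476 named genes, carried by 217 of 71447 transcripts. By role they were 29 ligands, 3 intracellular FGFs, 1 protease that activates HGF, 13 receptors or receptor-like proteins and 7 feedback inhibitors. The other 6 (fgfr1op, fgfr1op2, spryd3, spryd4, spryd7a and spryd7b) matched by spelling only and belong to none of these pathways.

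The animals were juvenile wild-type pacu (Piaractus mesopotamicus, a freshwater fish of South America), weighing 12 to 20 g, held at 28 °C under a day of 12 h light and fed commercial food to satiety. No source used here gives their age in days. The cell group was 3 libraries of primary cultures isolated from fast-twitch epaxial muscle, with muscle of 12 fish used per isolation. Their medium was DMEM plus 10% fetal bovine serum and 1% antibiotics, and neither their days in culture nor their confluence is stated. The tissue group was 3 libraries of the same muscle taken directly, from 6 fish in all, and whether these were pooled is not stated. The labels do not tie a library to a culture or a fish, so p-values measure the spread between these libraries.

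Growth factors of these families bind receptor tyrosine kinases at the cell surface, which recruit adaptor proteins and pass the signal through Ras, Raf, MEK and ERK and through PI3 kinase. ERK activity induces its own inhibitors, among them Sprouty proteins, and the related Spred proteins act on the same pathway. In mammalian skeletal muscle, FGF2 and HGF are known as signals that activate satellite cells and keep myoblasts dividing, while PDGF and VEGF ligands act on mesenchymal cells and vessels.

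Values are read counts divided by 1 size factor per library, called normalised counts here. One read was worth 0.391 to 0.439 normalised counts in culture and 1.98 to 2.67 in tissue, so 3 reads, the floor used for genes at 0, came to 1.17 to 1.32 in cells and 5.95 to 8.02 in tissue. Counts recovered from the table totalled 105795157 to 124752600 reads per library. Transcripts were tested as cells minus tissue with limma on log2(normalised count + 1). They were called at a Benjamini-Hochberg adjusted p below 0.05 over all 65662 transcripts that reached 10 in at least 3 libraries. The added 1 can understate the change of low genes. Tissue libraries at 0 can instead enlarge a rise, as the added 1 lies below the value of 1 tissue read. For hgfa the log2 change was 2.0 where the group means differed 1.77-fold, and for erbb4b 2.45 where they differed 1.04-fold. A gene that "rose" or "fell" below was called higher or lower, respectively, in culture.

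On the deposited scale 9 of 13 receptors were higher in culture, ligands moved both ways, and 2 feedback inhibitors were lower. With all libraries scaled to equal totals, 5 of 7 feedback inhibitors were called higher, as were 10577 of 13009 named genes. Of 58 members tested, 20 rose and 14 fell. Among all 13009 named genes tested, 31.4% were higher, 21.1% lower and 52.5% either, so the members' shares of 34.5% and 24.1% lay near the background. Every cell library was above every tissue library for 21 members and below for 14, beside 41.6% and 25.1% of named genes. Of 13 receptors 9 rose and 1 fell, of 28 ligands 11 rose and 7 fell, and all 3 intracellular FGFs fell. Of 7 feedback inhibitors none rose and 2 fell by limma, and the HGF activator did not pass. At an unadjusted p below 0.05, and with voom weights, the count of feedback inhibitors that rose was also 0. Without cell library 2 or 3, 1 feedback inhibitor fell, and 7 or 6 receptors rose, respectively. The median log2 change was 1.74 for receptors, 1.54 for ligands and -0.02 for feedback inhibitors, beside 0.60 for all named genes. The tissue also holds cells other than muscle fibres, and in such bulk samples fewer cells of a type and less RNA per cell cannot be told apart. Passing the filter could itself require a difference: fgf1b, bdnf and vegfbb reached 10 only in cells, and fgf4, fgf12b, FGF13, fgf13a, fgf18a, fgf21 and mdkb only in tissue. Of the 6 entries matched by spelling, spryd7a fell (log2 change -0.65, adjusted p = 0.0351), a call that ended in each fit with 1 library left out (log2 -0.75 to -0.46), and 5 did not pass.

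**Figure D1:**
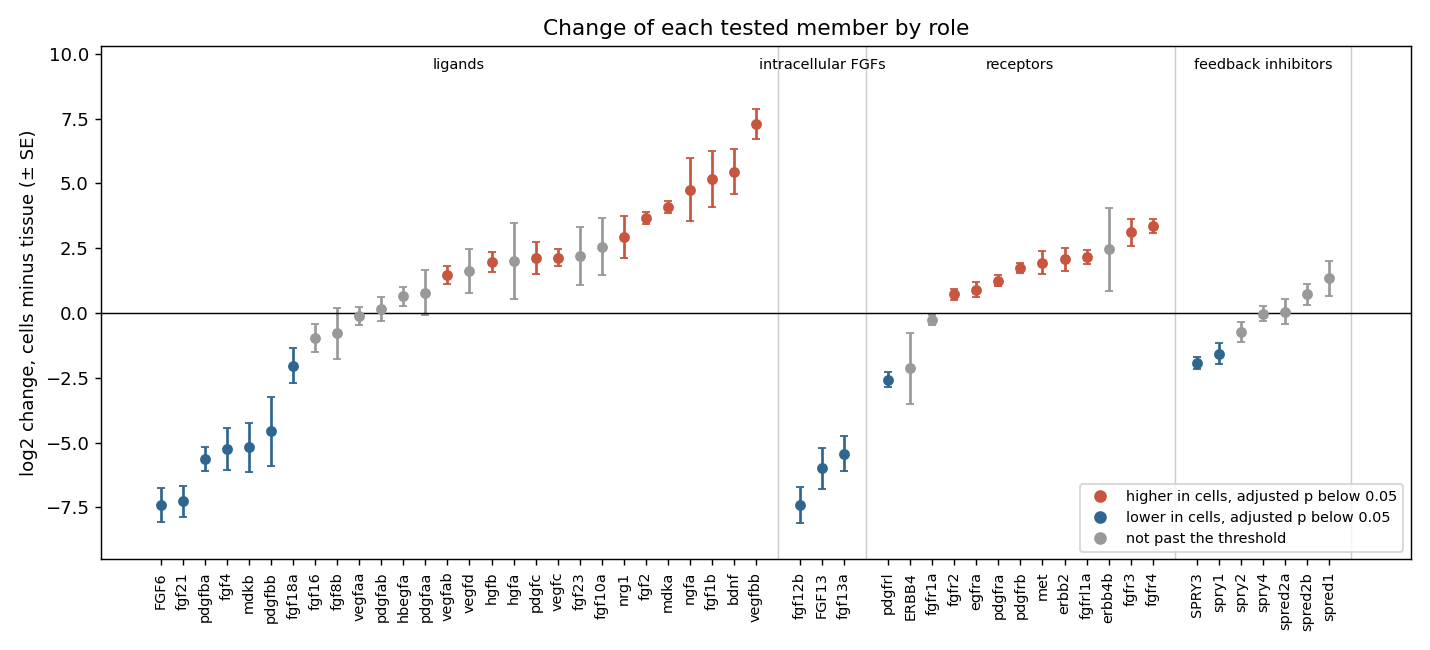
Log2 change of each tested member, cells minus tissue, grouped by role (x axis, gene; y axis, log2 change on the log2(normalised count + 1) scale; bars, SE of the limma fit, n = 3 libraries per group). Red marks genes called higher in cells, blue genes called lower and grey genes not past the threshold; ligands spread from -7.41 (FGF6) to 7.28 (vegfbb), whereas receptors other than pdgfrl, ERBB4 and fgfr1a lie above 0.

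The FGF ligands showed the widest contrast. FGF6, a factor known in mammals from skeletal muscle and its precursor cells, had 2870.2, 1738 and 1830.1 normalised counts in the tissue libraries and 33.6, 7.02 and 5.67 in the cell libraries. Every tissue library was far above every cell library, and the gene fell (log2 change -7.41 with SE 0.65, adjusted p = 0.000142). FGF2, the broadly acting basic FGF, ran the other way, with 2925, 2109 and 1879.5 in cells against 193, 145 and 203 in tissue. No libraries overlapped, and fgf2 was 12.8-fold higher in cells by the group means (log2 change 3.66 with SE 0.24, adjusted p = 5.06e-05). Its transcripts share an assembled gene with nudt6, the partner gene on the opposite strand in vertebrates, and whether the counting used strand is not stated. Reads of that partner may therefore be included. FGF1, the acidic FGF, was also found mainly in culture: fgf1b had 108, 94.4 and 48.8 in cells and 0, 0 and 9.95 in tissue (log2 change 5.18 with SE 1.08, adjusted p = 0.0069).

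Several other FGF ligands were found mainly in the fish. The ligand gene fgf21, an endocrine FGF of metabolic stress made by mammalian liver and muscle, had 182, 109 and 183 in tissue for its highest transcript, which was at 0 in all 3 cell libraries and, against the floor of 3 reads per library, at least 125-fold lower in cells. The gene itself was not at 0 in culture. Of its 4 transcripts, 2 belong to a second assembled gene with 0, 5.27 and 4.36 in cells, and these were 22.1-fold and 23.0-fold lower. Summed over all 4, fgf21 changed by -6.55, adjusted p = 0.00209. The ligand gene fgf4, best known as an embryonic signal, was likewise at 0 in every cell library, with 104, 11.9 and 39.8 in tissue, and at least 41.1-fold lower; tissue library 1 was the highest. The ligand gene fgf18a, a skeletal growth factor in mammals, had 3.13, 7.02 and 9.59 in cells and 32.1, 19.8 and 33.8 in tissue and was called lower (log2 change -2.03, adjusted p = 0.0434). That call ended without cell library 1 (log2 -1.65, adjusted p = 0.153), 2 (-2.13, adjusted p = 0.114) or 3 (-2.33, adjusted p = 0.0802). It also ended without tissue library 1 (-1.93, adjusted p = 0.0505) or 3 (-1.90, adjusted p = 0.0672). At equal totals the value turned to 0.30 (adjusted p = 0.676). The other 4 FGF ligands did not pass the test. The phosphate hormone fgf23 (log2 change 2.20, adjusted p = 0.151) stood at 1377, 119 and 69.7 in cells, where 1 library was more than 10 times the others, against 21.4, 73.4 and 71.6 in tissue. The embryonic factors fgf8b (log2 change -0.79, adjusted p = 0.528) and fgf10a (log2 change 2.55, adjusted p = 0.0954) and fgf16 (log2 change -0.97, adjusted p = 0.178), known from zebrafish fin development, overlapped between groups. Without tissue library 2, where alone in tissue it was above 0, fgf10a was called higher (log2 3.78, adjusted p = 0.00404).

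The intracellular FGFs, which are not secreted and in mammals bind voltage-gated sodium channels of excitable cells, were nearly confined to the tissue libraries. The gene fgf12b had 85.6, 274 and 205 there and 0 in all cell libraries, a difference of at least 149-fold against the floor. FGF13 had 201, 105 and 137 in tissue and 1.56, 0 and 3.49 in cells (log2 change -5.99 with SE 0.78, adjusted p = 0.00078). The entry fgf13a had 77.6, 25.8 and 71.6 in tissue and 2 reads in 1 cell library, a ratio of 201-fold (95% counting interval 53.9 to 1692). FGF13 and fgf13a are 2 names on 1 assembled gene, so the 3 intracellular entries counted here are not independent of each other.

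The PDGF ligands parted by chain. PDGF-B, the chain that recruits pericytes to vessels, was represented by the paralogs pdgfba and pdgfbb, and both were lower in culture. The ligand gene pdgfba had 522, 599 and 639 in tissue against 18.4, 8.34 and 7.84 in cells, with no overlap (log2 change -5.64 with SE 0.46, adjusted p = 0.000111). The ligand gene pdgfbb had 80.2, 337 and 223 in tissue and 0, 23.3 and 18.3 in cells (log2 change -4.56 with SE 1.33, adjusted p = 0.0271). Its call ended without tissue library 2 (log2 -4.12, adjusted p = 0.0826) or 3 (-4.42, adjusted p = 0.074) and at equal totals (-2.66, adjusted p = 0.183). PDGF-C moved the opposite way: pdgfc had 111, 224 and 303 in cells and 69.5, 19.8 and 61.7 in tissue (log2 change 2.13 with SE 0.63, adjusted p = 0.0289). This call ended without cell library 2 (log2 2.03, adjusted p = 0.108) or 3 (1.81, adjusted p = 0.123) and with voom weights (2.13, adjusted p = 0.106). The PDGF-A paralogs pdgfaa (log2 change 0.79, adjusted p = 0.476) and pdgfab (log2 change 0.14, adjusted p = 0.814) overlapped between groups and did not pass.

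Of the VEGF ligands, which act on blood and lymph vessel endothelium, 3 of 5 rose and the other 2 did not pass. Among all named genes 31.4% were higher. The ligand gene vegfaa, the main angiogenic ligand, did not pass (log2 change -0.13 with SE 0.35, adjusted p = 0.773). It had 829, 594 and 597 in cells and 460.1, 714 and 1176 in tissue, where the libraries spread over the whole range of the cells. Its paralog vegfab rose, with 885, 566 and 567 in cells and 152, 353 and 251 in tissue (log2 change 1.46 with SE 0.35, adjusted p = 0.0131). Without cell library 1 it did not pass (log2 1.25, adjusted p = 0.0541). Its assembled gene also carries a transcript named serpine3. The ligand gene vegfbb, a VEGF-B paralog, was at 0 in every tissue library and had 196, 126 and 148 in cells, at least 23.6-fold higher against the floor of 3 reads per library. The lymphatic ligand vegfc had 276, 451 and 341 in cells and 96.3, 63.5 and 79.6 in tissue (log2 change 2.13 with SE 0.31, adjusted p = 0.00138). The related vegfd overlapped (log2 change 1.62, adjusted p = 0.153) and was called higher when tissue library 1 was left out (log2 2.26, adjusted p = 0.0321).

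Hepatocyte growth factor, the satellite cell activator, has 2 symbols here, of which hgfb covers 2 assembled genes. The ligand gene hgfb had 249, 193 and 217 in cells against 40.1, 55.5 and 75.6 in tissue, with every cell library above every tissue library (log2 change 1.97 with SE 0.37, adjusted p = 0.00432). The ligand gene hgfa had 66.1, 41.7 and 29.6 and 0, 23.8 and 53.7, and the groups overlapped (log2 change 2.0, adjusted p = 0.295). Leaving out 1 library moved that change over 0.27 to 3.16, lowest without tissue library 1, where hgfa was at 0. By transcript, 1 of 2 was called higher for hgfb (log2 1.20 to 1.97) and 1 of 4 tested for hgfa (1.07 to 3.74). Summed over transcripts, hgfb changed by 1.70 (adjusted p = 0.0123) and hgfa by 2.55 (adjusted p = 0.257). HGFAC, the protease that cleaves pro-HGF, reached 299.6, 11.9 and 15.9 in tissue and 62.2, 14.0 and 32.7 in cells. Tissue library 1 stood apart and the test was not passed (log2 change -0.34, adjusted p = 0.84).

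Among ligands of the EGF receptor family, neuregulin nrg1, known from motor axons as a signal to Schwann cells and muscle, rose from 5.35, 33.7 and 25.9 in tissue to 191, 77.3 and 174 in cells (log2 change 2.93 with SE 0.81, adjusted p = 0.022). That call ended without cell library 1 (log2 2.69, adjusted p = 0.0947) or 3 (2.76, adjusted p = 0.0955). Heparin-binding EGF, hbegfa, overlapped between groups (log2 change 0.64, adjusted p = 0.2). The ligand gene nrg2a was the member left untested by the filter. It had 5.47, 8.34 and 11.3 in cells and 0, 0 and 7.96 in tissue, just short of 10 in 3 libraries, while fgf10a, with 10.5 as its value at rank 3, was just inside.

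Both neurotrophins that the pattern took in, survival factors for neurons that are also made by other cells, rose, beside 31.4% of all named genes. The ligand gene bdnf had 39.5, 101 and 99.4 in cells, while tissue held 2 reads in 1 library, a ratio of 54.1-fold (95% counting interval 14.9 to 448). The fit gave log2 change 5.45 with SE 0.87, adjusted p = 0.0021. The ligand gene ngfa had 133, 178 and 116 in cells and 0, 3.97 and 27.8 in tissue (log2 change 4.76 with SE 1.21, adjusted p = 0.0164). Its call ended without cell library 1 (log2 4.79, adjusted p = 0.0584), 2 (4.58, adjusted p = 0.0699) or 3 (4.89, adjusted p = 0.0565). No overlap was seen between groups for either gene. A further neurotrophin, ntf3, lies outside the pattern and was named after its values were seen. It had 150, 87.3 and 71.0 in cells and 26.7, 3.97 and 0 in tissue (log2 change 4.26 with SE 1.23, adjusted p = 0.0262). Its call was not followed under the alternatives.

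The midkine paralogs, heparin-binding growth factors known from embryonic and regenerating tissue, moved in opposite directions. The ligand gene mdka had 10515, 13659 and 11671 in cells and 524, 714 and 927 in tissue and was 16.6-fold higher in culture by the means (log2 change 4.08 with SE 0.24, adjusted p = 3.53e-05). The ligand gene mdkb had 3.13, 3.51 and 1.74 in cells and 484, 103 and 47.7 in tissue (log2 change -5.19 with SE 0.96, adjusted p = 0.00402). In tissue mdkb varied by library, with library 1 the highest, yet the lowest tissue library was still above every cell library.

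**Figure D2:**
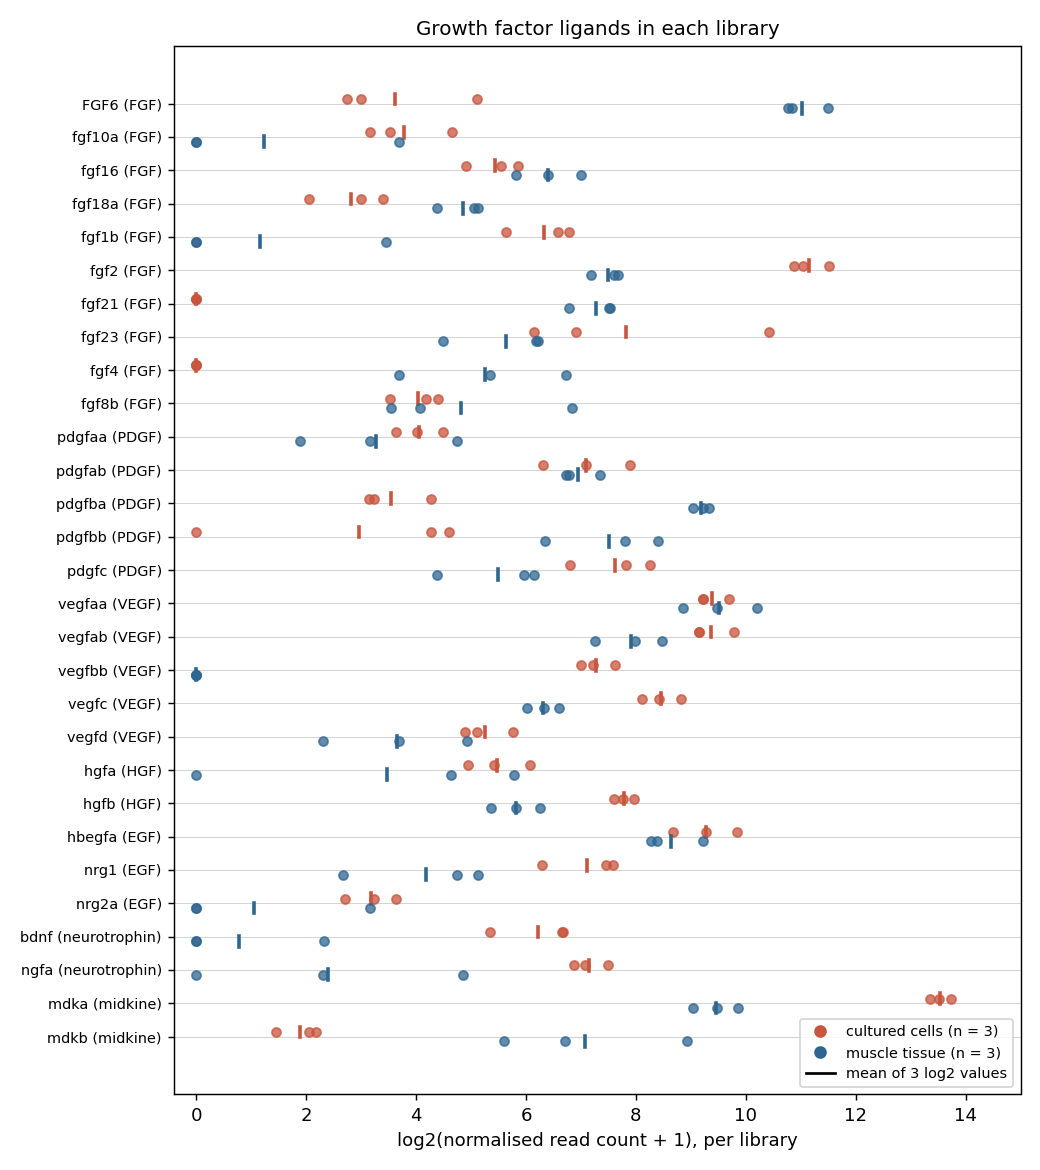
Each dot is 1 library, placed by log2(normalised count + 1) on the x axis; rows are the 29 ligand genes with their family, red for cultured cells and blue for muscle tissue, and short bars mark the mean of the 3 log2 values. The colours separate in opposite directions for FGF6, fgf21, fgf4, pdgfba and mdkb (tissue above) and for fgf2, mdka, bdnf and vegfbb (cells above), and mix for vegfaa, pdgfab and hbegfa.

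Receptors were called higher in each of the 4 families whose receptors the pattern took in, FGF, PDGF, HGF and EGF. The VEGF receptors lie outside the pattern and are given below, where flt1 and kdr fell and kdrl did not pass. Of the receptor calls, only those of fgfr3, fgfr4, fgfrl1a, pdgfra and pdgfrb held under every alternative, and none of the HGF or EGF families did. Of the FGF receptors, fgfr4, expressed in mouse by activated satellite cells and myoblasts, had 942, 1609.6 and 1398 in cells and 126, 147 and 103 in tissue, a 10.5-fold difference of the means (log2 change 3.36 with SE 0.26, adjusted p = 0.000102). The receptor gene fgfr3 followed, with 339, 558 and 643 in cells and 37.4, 39.7 and 121 in tissue (log2 change 3.11 with SE 0.52, adjusted p = 0.00261). Both were separated in all libraries. The receptor gene fgfrl1a, a receptor that binds FGFs but lacks the kinase domain, had 606, 632 and 531 against 182, 111 and 107 (log2 change 2.17 with SE 0.27, adjusted p = 0.000618). The receptor gene fgfr2 rose by less (log2 change 0.71, adjusted p = 0.0289). The call ended without cell library 2 (log2 0.67, adjusted p = 0.0988) or 3 (0.67, adjusted p = 0.0961), without tissue library 3 (0.57, adjusted p = 0.0576) and with the replicate number as a block (0.71, adjusted p = 0.0683). Its assembled gene also carries a transcript named tnip1, as that of met does one named LPIN2. The receptor gene fgfr1a did not pass (log2 change -0.27 with SE 0.20, adjusted p = 0.301), and its libraries ran from 588 to 752 in cells and from 690.3 to 953 in tissue. Of its 5 transcripts, with log2 changes of -0.56 to -0.22, 1 was called lower. Summed, fgfr1a changed by -0.37 (adjusted p = 0.16).

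Both PDGF receptor kinases were higher in culture. The receptor gene pdgfra, a marker of fibro-adipogenic and other mesenchymal cells in mammalian muscle, had 1912, 1840.0 and 1470.3 in cells and 827, 585 and 796 in tissue (log2 change 1.25 with SE 0.20, adjusted p = 0.00212). The receptor gene pdgfrb, the receptor of pericytes and mesenchymal cells for PDGF-B, had 2521, 3207 and 3496 and 835, 831 and 1082 (log2 change 1.74 with SE 0.19, adjusted p = 0.000363). The groups did not overlap for either gene, so that the kinases were higher where the PDGF-B ligand transcripts were lower. The receptor gene pdgfrl, a PDGF receptor-like protein without a kinase domain, was the receptor entry that fell, from 1206, 690.3 and 776 in tissue to 171, 161 and 109 in cells (log2 change -2.58 with SE 0.30, adjusted p = 0.00043). At equal totals its change was -0.045 (adjusted p = 0.879).

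The HGF receptor met, which marks satellite cells in mouse, rose together with hgfb, with 319, 434 and 577 in cells and 177, 59.5 and 131 in tissue (log2 change 1.94 with SE 0.45, adjusted p = 0.0111). Without cell library 3 its adjusted p was just over the threshold (log2 1.73, adjusted p = 0.0532). In the EGF receptor family, erbb2, which binds no ligand itself and pairs with the others, had 325, 315 and 373 in cells and 112, 39.7 and 111 in tissue (log2 change 2.07 with SE 0.45, adjusted p = 0.00814). With all 5 transcripts named erbb2 summed the call ended (log2 0.92, adjusted p = 0.0684). The receptor gene egfra, the EGF receptor, had 1245, 981 and 951 in cells and 639, 365 and 764 in tissue, and the difference was close to the threshold (log2 change 0.90 with SE 0.30, adjusted p = 0.0423). That call ended without cell library 1 (log2 0.78, adjusted p = 0.134), 2 (0.95, adjusted p = 0.0997) or 3 (0.97, adjusted p = 0.0872). It ended as well without tissue library 1 (0.99, adjusted p = 0.0523) or 2 (0.59, adjusted p = 0.0576) and after TMM scaling (0.82, adjusted p = 0.0575). The neuregulin receptor entries ERBB4 (log2 change -2.13, adjusted p = 0.233) and erbb4b (log2 change 2.45, adjusted p = 0.238) did not pass. ERBB4 shares its assembled gene with a transcript named erbb2, so its name is uncertain. In tissue, erbb4b was above 0 in library 2 alone, and without that library it was called higher (log2 4.43, adjusted p = 0.00096).

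Of the 4 Sprouty genes 2 fell, and of the 3 Spred genes none passed the test by limma, beside 21.1% of all named genes lower. Sprouty genes encode ERK-induced inhibitors of receptor signalling, and Spry1 in mouse is known to hold satellite cells quiescent. The inhibitor gene spry1 had 1236, 1214 and 1086 in tissue and 759, 318 and 257 in cells (log2 change -1.57 with SE 0.39, adjusted p = 0.0151), with the 3 cell libraries below all tissue libraries. The fall no longer passed without cell library 2 (log2 -1.41, adjusted p = 0.0663) or 3 (-1.26, adjusted p = 0.0513). SPRY3 had 1086, 1109 and 925 in tissue and 320.3, 313 and 198 in cells, also without overlap (log2 change -1.93 with SE 0.24, adjusted p = 0.000576). Both changes turned to higher values at equal library totals, at a log2 of 0.97 (adjusted p = 0.0592) for spry1 and 0.60 (adjusted p = 0.0571) for SPRY3.

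The other inhibitors overlapped or missed the threshold. The inhibitor gene spry4 had 1295, 753 and 628 in cells and 712, 934 and 965 in tissue (log2 change -0.022 with SE 0.29, adjusted p = 0.956), and spry2 (log2 change -0.73, adjusted p = 0.15) also overlapped. Of the Spred proteins, which block Raf activation by Ras, spred2b had 438, 307 and 329 in cells and 118, 242 and 352 in tissue (log2 change 0.71 with SE 0.42, adjusted p = 0.195). The inhibitor gene spred2a (log2 change 0.053, adjusted p = 0.934) was near 0, with a sign that turned under several alternatives, and spred1 (log2 change 1.34, adjusted p = 0.143) had every cell library above every tissue library without passing.

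**Figure D3:**
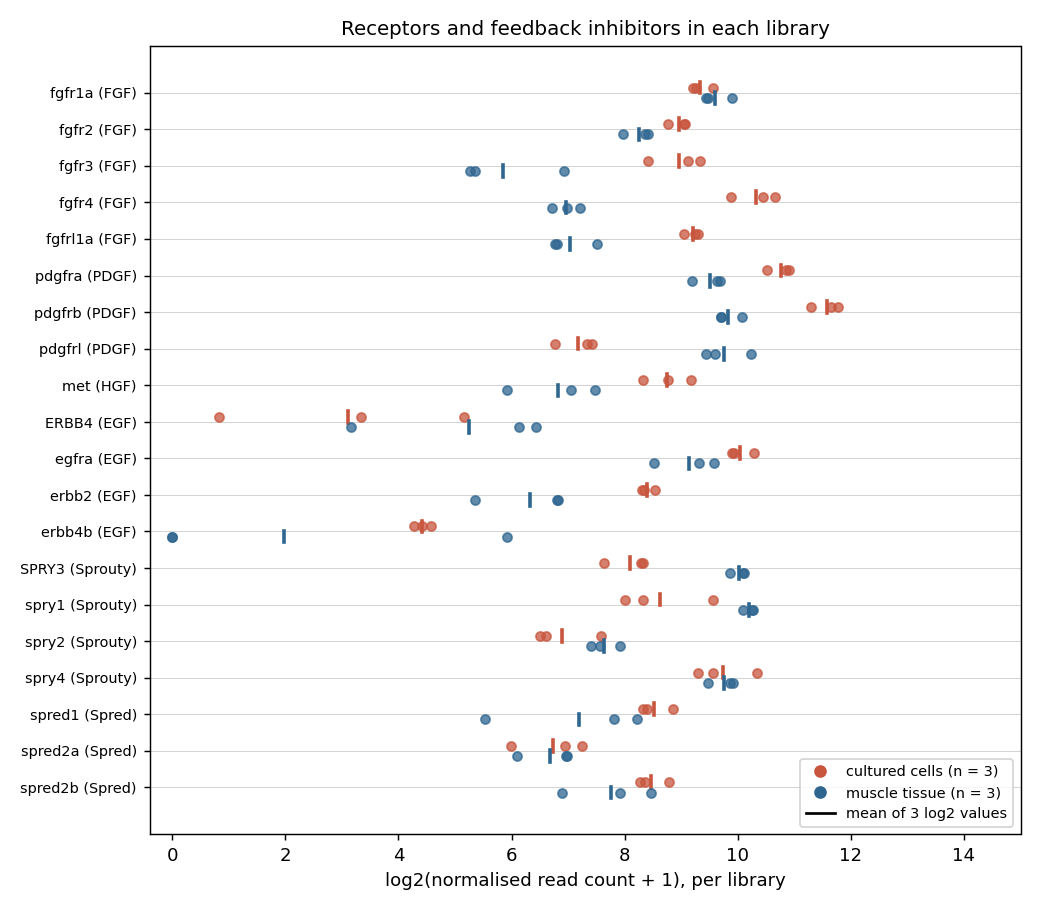
Each dot is 1 library at its log2(normalised count + 1) on the x axis, for the 13 receptor entries and 7 feedback inhibitors, red for cultured cells and blue for muscle tissue, with short bars at the mean of the 3 log2 values. Red lies right of blue for fgfr3, fgfr4, fgfrl1a, pdgfra, pdgfrb, met and erbb2, left of it for pdgfrl, spry1 and SPRY3, and among it for fgfr1a and spry4.

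Most members were assembled as several transcripts, which may share reads and are no independent replicates, yet show how far the choice of 1 transcript matters. Of the 217 member transcripts, 211 were tested, 77 were higher and 39 lower, beside 27.4% and 19.7% of all transcripts tested, or 47.1% either way. Of 45 symbols with more than 1 tested transcript, 14 had every one higher, 8 every one lower, 15 none called and 8 some called in 1 direction; none had transcripts called both ways. All 10 fgf2 transcripts rose, by 3.64 to 4.71 on the log2 scale, and all 6 FGF6 transcripts fell, at -7.41 to -6.97. The 9 fgfr2 transcripts all rose, but by 0.71 to 3.55, with the highest transcript the least changed; summed, fgfr2 changed by 1.63, adjusted p = 0.00079. For erbb2 the 2 transcripts of 1 assembled gene rose, and the other 3, of 2 further assembled genes, had log2 changes of -2.02 to -1.55 that did not pass.

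**Figure D4:**
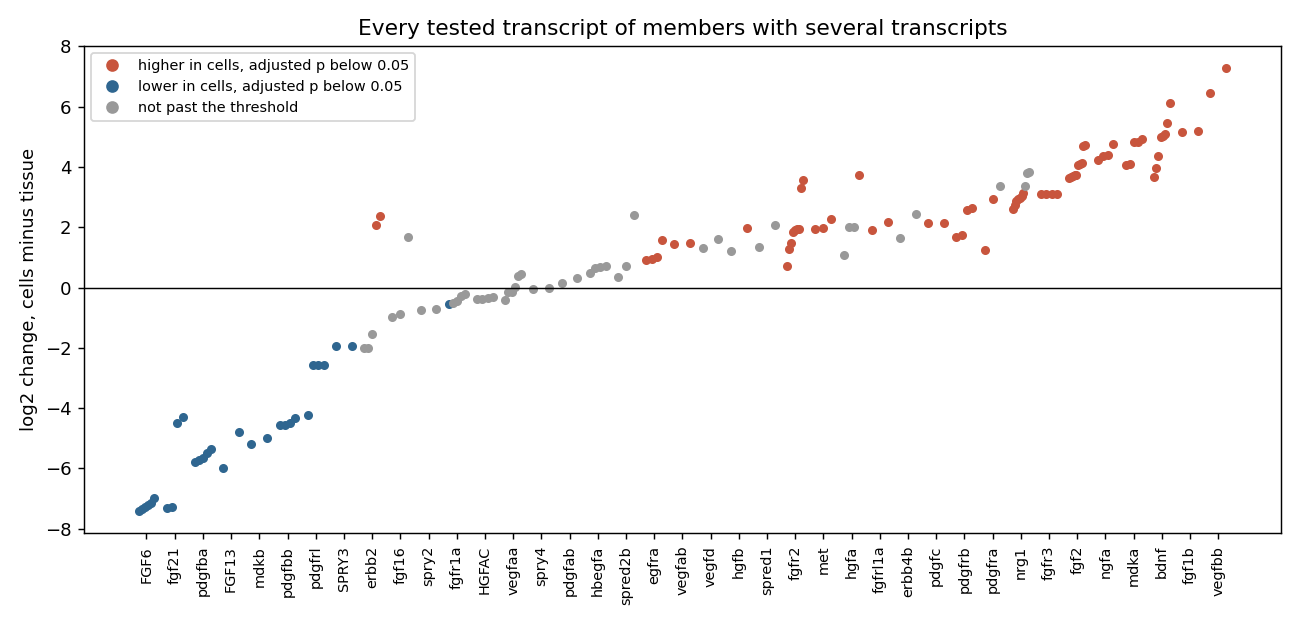
Every tested transcript of the members with several tested transcripts (x axis, gene, without those matched by spelling only; y axis, log2 change, cells minus tissue), with red called higher in cells, blue called lower and grey not past the threshold. Transcripts of 1 gene stay together for FGF6, pdgfba, fgfr3 and fgf2, and erbb2 and fgfr2 are spread.

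Scaling all libraries to equal totals raised the median log2 change of all named genes from 0.60 to 3.10. Of 13009 named genes, 10577 were then higher and 956 lower. Of the members, 42 were higher and 8 lower, with 11 of 13 receptors and 20 of 28 ligands higher. All 20 members that rose kept their call, which an upward shift of the changes could hardly end. Of the 14 that fell, 10 kept their direction and 8 their call: FGF6, fgf21, fgf4, pdgfba, mdkb and the 3 intracellular FGFs. Of these 8, all but FGF6 and pdgfba reached 10 only in tissue, so passing the filter could itself require a lower value in cells. Relative to all named genes, the receptor median was 1.15 on the deposited scale, the ligand median 0.94 and the feedback median -0.62. Equal totals multiplies each library by 1 factor, so these relative medians change little by construction (1.18, 0.92 and -0.58).

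**Figure D5:**
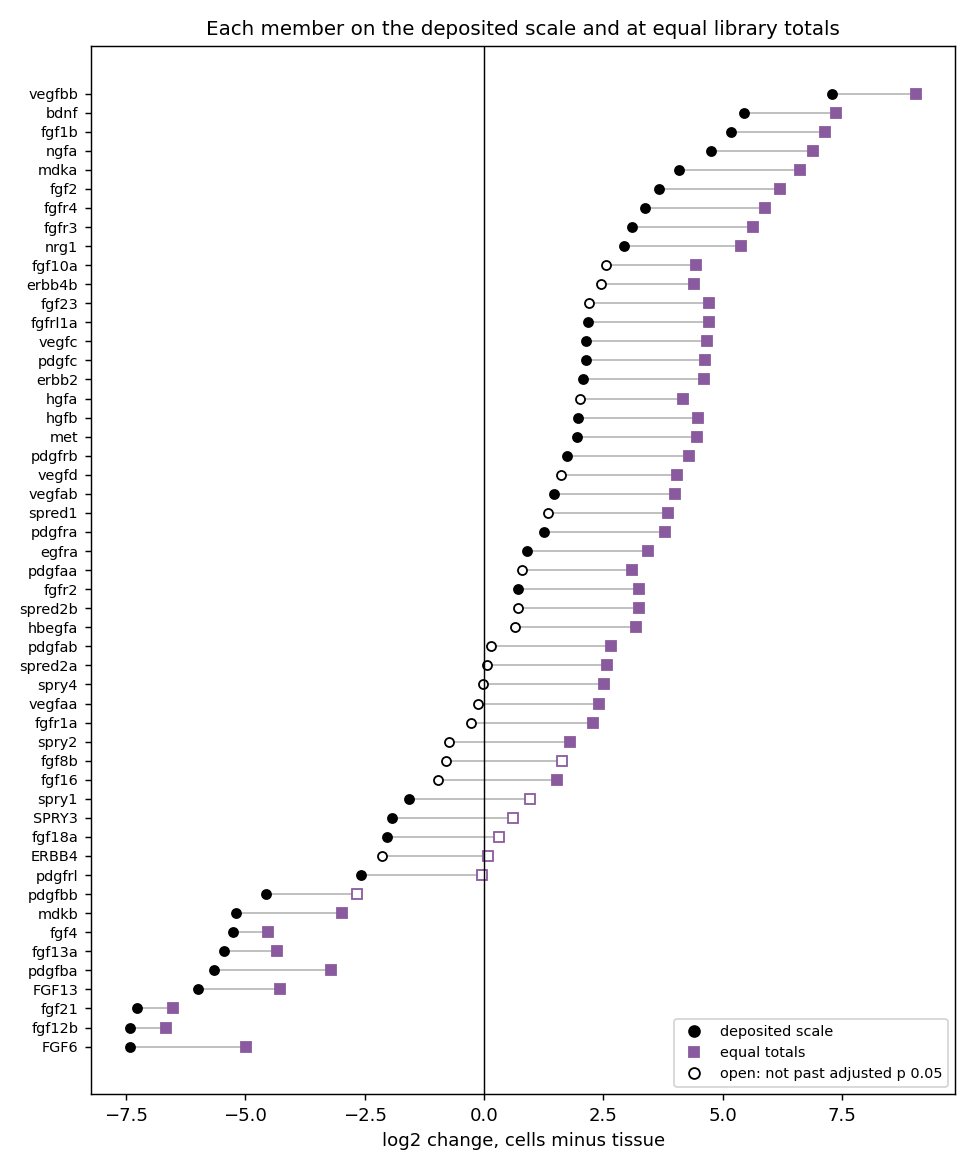
Log2 change of each tested ligand, intracellular FGF, receptor and feedback inhibitor, cells minus tissue, on the deposited scale (circles) and with all libraries scaled to equal totals (squares); filled symbols passed an adjusted p of 0.05. All points move right; FGF6, fgf21, fgf4, mdkb, pdgfba and the intracellular FGFs stay left of 0 and filled, while spry1 and SPRY3 cross it.

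A further list of 51 genes, whose names the pattern does not take in, was also counted, and 28 of them were in the table. It mixes ligands and receptors of these families with co-receptors and other surface proteins, such as neuropilins, syndecans, glypicans, lrig genes and lrp1 genes. Of 27 tested, 14 rose and 2 fell, beside 31.4% and 21.1% of all named genes. The 2 that fell were VEGF receptors. The gene flt1 was at 0 in all cell libraries and had 136, 143 and 157 in tissue, at least 115-fold lower against the floor. The gene kdr had 32.1, 21.5 and 15.3 in cells and 305, 181 and 159 in tissue (log2 change -3.17 with SE 0.50, adjusted p = 0.00202). At equal totals kdr no longer passed (log2 -0.69, adjusted p = 0.223). A further VEGF receptor, kdrl, named after its values were seen, missed the threshold (log2 change 0.084, adjusted p = 0.802). The VEGF co-receptors nrp1a, nrp1b and nrp2a, named likewise, rose by 3.45, 3.15 and 2.72 (adjusted p = 0.000807, 8.33e-05 and 0.000238) on the log2 scale. Their relative nrp2b, on the same list, did not pass (log2 change 0.60, adjusted p = 0.0546). Summed over its transcripts, nrp2a changed by 1.44, adjusted p = 0.000388. The largest rises included mst1rb (log2 change 5.53 with SE 0.21, adjusted p = 1.15e-05) and mst1ra (log2 change 4.67 with SE 1.09, adjusted p = 0.0112), paralogs of the Met-related receptor RON. They also included lrp1aa (log2 change 4.47 with SE 0.16, adjusted p = 9.96e-06) and lrp1ab (log2 change 4.57 with SE 0.24, adjusted p = 2.43e-05), endocytic receptors. The names lrp1aa and lrp1ab lie on 1 assembled gene, so their rises are not independent of each other. By library, mst1rb had 2050.3, 1841 and 1621 in cells and 42.8, 35.7 and 37.8 in tissue, and mst1ra 93.9, 91.3 and 156 and 0, 3.97 and 15.9. For lrp1aa these were 21012, 18273 and 17150.4 in cells and 784, 924 and 828 in tissue, and for lrp1ab 11481, 9296 and 9112 and 543, 432 and 306. None of these 4 overlapped between groups. The mst1ra call ended without cell library 3 (log2 4.42, adjusted p = 0.0517).

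The endothelial markers, a list that holds kdr and kdrl, moved with flt1 and kdr: 12 of 17 were lower in culture and 1 higher. Among all named genes 21.1% were lower and 31.4% higher. The endothelial markers had a summed level of 2994 to 3633 in cells and 6302 to 8035 in tissue, and none at 0 in all cell libraries. Their part in the VEGF receptor values was not tested. Fibroblast markers moved with pdgfra, itself on that list together with pdgfrl: 12 of 20 were higher and 5 lower. They summed to 766468 to 982029 in cells and 450302 to 552190.0 in tissue. Most of both sums came from the collagens col1a1a, col1a1b and col1a2, none of which passed (adjusted p = 0.122, 0.181 and 0.316). Without col1a2 the sums were 378670 to 460229 in cells and 221530 to 266192 in tissue. Of the smooth muscle and pericyte markers, which include pdgfrb, 4 of 13 were higher and 6 lower (30.8% and 46.2%), the higher share near that of all named genes. Their sums were 53768 to 83492 and 1420190.0 to 1857830.0, and no marker of either list was at 0 in a group. The tissue sum was almost all acta2, and without it the sums were 28601 to 48053 in cells and 8664 to 9861 in tissue, the opposite order. In cells most of the rest was tagln, and without both genes the sums were 5291 to 6554 and 7525 to 9004. The part of these cells in the PDGF receptor values was not tested.

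Markers of fast fibres fell in 16 of 17 cases, summing to 709 to 6319 in cells and 17684100.0 to 25660300.0 in tissue, with none at 0. They moved with FGF6 and the intracellular FGFs. Cell library 1 had the lowest sum but the highest FGF6 value of the cell libraries. Myoblast markers gave 4 higher and 3 lower of 13 tested (30.8% and 23.1%), near the 31.4% and 21.1% of all named genes. Their sums were 15128 to 26108 and 42521 to 57157. Single genes carried both sums: without desma they were 14951 to 24579 in cells and 4406 to 4757 in tissue, the opposite order, and without both desma and ncam1a they overlapped, at 2021 to 5384 and 4325 to 4610.0. Epithelial markers gave 5 higher of 8, with sums of 136266 to 160914 and 19323 to 30032, and 9 of the 17 listed were not in the table. Almost all of both sums came from the keratins krt4, krt8, krt18a.1 and krt18b. Without krt8 they were 73996 to 88568 in cells and 12132 to 18770 in tissue. Of the markers that did not pass, tp63 (log2 change -1.46, adjusted p = 0.0904) and evpla (-2.41, adjusted p = 0.177) were lower and krt5 (0.23, adjusted p = 0.537) higher. Leukocyte markers were lower in 9 of 10 (lcp1 and the highest transcript of laptm5 at 0 in cells; sums 252 to 412 and 7008 to 10098). Erythroid markers were lower in 7 of 7 tested (gata1a, rhag and the highest transcript of hemgn at 0 in cells; sums 1.56 to 15.7 and 3250.1 to 24010.0). Schwann and neuronal markers were lower in 6 of 9 and higher in 2 (mbpa and plp1b at 0 in cells; sums 9672 to 13886 and 13316 to 16931). The order of those sums turned without pmp22b, to 8200.4 to 12098 and 3536 to 4775, and not without tubb5. How far any of these cells account for a member's level was not tested.

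Downstream of the receptors, 87 genes of a relay list and a list of targets and feedback genes were tested. Of these, 27 rose and 13 fell (31.0% and 14.9%, beside 31.4% and 21.1% of all named genes). Without cell library 1, 16 rose. In the relay, which carries the signal from receptor to ERK and PI3 kinase, 17 of 60 rose and 8 fell. The gene map2k1, which encodes the kinase MEK1, had 1762, 2293 and 2240.4 in cells and 72.2, 45.6 and 175 in tissue (log2 change 4.63 with SE 0.47, adjusted p = 0.000246). The adaptors frs2a (log2 change 4.94 with SE 1.21, adjusted p = 0.0136) and grb2a (log2 change 4.89 with SE 1.41, adjusted p = 0.0263) and the PI3 kinase subunit pik3r3a (log2 change 5.82 with SE 1.39, adjusted p = 0.0127) rose too, from tissue values of 0 in 1 or 2 libraries. In cells frs2a had 115, 53.1 and 77.1, and in tissue 0, 15.9 and 0. For grb2a these were 314, 287 and 240.1 and 0, 63.5 and 11.9, and for pik3r3a 304, 113 and 149 and 0, 27.8 and 0. None of these 3 overlapped between groups. These 3 calls were lost in some fits with 1 library left out. Those of frs2a (log2 4.66, adjusted p = 0.054) and pik3r3a (5.41, adjusted p = 0.0552) ended without cell library 1. That of grb2a ended without cell library 1 (4.81, adjusted p = 0.0897), 2 (4.87, adjusted p = 0.0917) or 3 (5.0, adjusted p = 0.0812) or tissue library 3 (5.12, adjusted p = 0.0569).

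The largest falls of the relay were those of ptpn6, a phosphatase of blood cells, at 0 in all cell libraries and 50.8, 75.4 and 167 in tissue (at least 77.2-fold lower), and of the phosphatase gene ptpn11b, with 50.8, 29.0 and 12.6 in cells and 182, 367 and 282 in tissue (log2 change -3.27 with SE 0.59, adjusted p = 0.00374; at equal totals -0.78, adjusted p = 0.288). The ERK scaffold ksr1b had 349.6, 254 and 377 in cells and 1511, 1736 and 1466 in tissue (log2 change -2.28 with SE 0.20, adjusted p = 0.000154). The Ras gene hrasa had 179, 194 and 159 and 599, 756 and 559 (log2 change -1.83 with SE 0.21, adjusted p = 0.00043). Its assembled gene also carries a transcript named kras, named here after its values were seen, which did not pass (log2 change 0.12, adjusted p = 0.619). At equal totals ksr1b and hrasa turned to a log2 of 0.26 and 0.70 (adjusted p = 0.348 and 0.0331).

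Of 27 genes on a list of ERK targets and feedback genes, 10 rose and 5 fell. These shares of 37% and 18.5% lay near the 31.4% and 21.1% of all named genes. The feedback genes on it, outside the Sprouty and Spred names, went both ways. Of these, ERRFI1, socs3a (log2 change 1.86, adjusted p = 0.0324) and socs3b (3.37, adjusted p = 0.000322) rose, while dusp1 and spsb1 fell. The socs3 genes were named after their values were seen and were not followed under the alternatives. The highest transcript of the AP-1 gene fosl1b was at 0 in every tissue library and had 308, 242 and 216 in cells (at least 38.4-fold higher), while another of its 3 transcripts held 1 read in tissue. Its paralog fosl1a (log2 change 5.95 with SE 1.5, adjusted p = 0.0156), the EGF receptor inhibitor ERRFI1 (log2 change 5.25 with SE 1.58, adjusted p = 0.0306) and the cyclin ccnd1 (log2 change 4.20 with SE 1.40, adjusted p = 0.0449) rose as well. By library, fosl1a had 457, 147 and 129 in cells and 0, 0 and 35.8 in tissue. For ERRFI1 these were 698, 584 and 633 in cells and 0, 67.4 and 67.6 in tissue. For ccnd1 they were 159.9, 213 and 195 in cells and 0, 19.8 and 51.7 in tissue, so that for all 3 genes the groups did not overlap. Each of the last 3 lost its call with 1 library left out. For fosl1a this was without cell library 1 (log2 5.38, adjusted p = 0.0664) or 2 (6.20, adjusted p = 0.0533). For ERRFI1 it was without cell library 1 (5.18, adjusted p = 0.0965), 2 (5.31, adjusted p = 0.0947) or 3 (5.26, adjusted p = 0.093). For ccnd1 it was without cell library 1 (4.31, adjusted p = 0.115), 2 (4.10, adjusted p = 0.135) or 3 (4.17, adjusted p = 0.126) or tissue library 2 (4.70, adjusted p = 0.0657). The ccnd1 call also ended at pseudocount 0.5 and after TMM scaling. Without tissue library 1, where both were at 0, ERRFI1 changed by 3.22, adjusted p = 0.000162 and ccnd1 by 2.51, adjusted p = 0.00677. With all its transcripts summed fosl1a changed by 2.44, adjusted p = 0.21.

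The immediate early genes egr3 (log2 change -4.18 with SE 0.38, adjusted p = 0.000169) and fosab (log2 change -3.55 with SE 0.53, adjusted p = 0.00144), the phosphatase dusp1 (log2 change -2.06 with SE 0.33, adjusted p = 0.002) and the SOCS-box gene spsb1 (log2 change -2.98 with SE 0.34, adjusted p = 0.000389) fell most. Among other immediate early genes of the list, named after their values were seen, egr1 (log2 change 1.83 with SE 0.41, adjusted p = 0.00961) and junbb (log2 change 2.68 with SE 0.34, adjusted p = 0.000663) rose. The genes egr2b (log2 change -1.16, adjusted p = 0.253), junba (0.35, adjusted p = 0.573) and ier2a (-0.97, adjusted p = 0.0925) did not pass. By library, egr3 had 45.4, 21.1 and 44.0 in cells and 712, 532 and 726 in tissue, and fosab 405, 287 and 108 and 1685, 3481 and 3495. For dusp1 these were 715, 920.4 and 499 in cells and 1905, 3642 and 3443 in tissue, and for spsb1 99.3, 116 and 152 and 1514, 825 and 708. None of these 4 overlapped between groups. At equal totals only egr3 of these 4 stayed called lower, and dusp1 turned to a log2 of 0.48 (adjusted p = 0.279). The ETS factors that FGF signalling is known to induce, named after their values were seen, did not move as 1 group. Of these, etv4 (log2 change 2.0 with SE 0.28, adjusted p = 0.00102) and etv5b (log2 change 1.43 with SE 0.20, adjusted p = 0.00117) rose, and etv5a fell (log2 change -1.67 with SE 0.42, adjusted p = 0.0161). The etv5a fall ended without cell library 1 (log2 -1.59, adjusted p = 0.0594) or 2 (-1.49, adjusted p = 0.067) or tissue library 3 (-1.56, adjusted p = 0.0532) and turned at equal totals to 0.86 (adjusted p = 0.0748). The ERK phosphatase dusp6, also named afterwards, had 450.1, 357 and 283 in cells and 302, 317 and 481 in tissue and did not pass (log2 change -0.01 with SE 0.28, adjusted p = 0.985), its sign turning under several alternatives.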

How the data were processed

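Poly(A) RNA of 6 libraries was extracted with TRIzol and sequenced from strand-specific libraries, per the labels' protocols. Per the submitters' processing notes, Bowtie2, DESeq2, Trimmomatic, GRCz11 and FastQC 0.11.8 were used, each with no role named. How reads were counted or shared between transcripts is not stated. The authors' deposited table holds normalised counts of 71447 Trinity transcripts, of which 12266 carry only an identifier and could not match a symbol. Each value was a whole multiple of its library's smallest, within 0.01, for 100% of values. Gene lengths were not used here, so levels are not compared between genes, and no sequences are shown.

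All 6 libraries were fitted on log2(value + 1) by limma 3.58.1 (trended prior, R 4.3.3); summaries used Python 3.11.15 with pandas 2.3.3. Count models were planned but not run, and voom weights on the recovered reads, chosen after the data were seen, replaced them. Members and lists were chosen with earlier results of these data known. Values in every library were given for the 4 highest members and the 5 largest rises and falls of each role, members at 0 in a group and the 4 largest rises and falls of each downstream list, and for further members chosen after their values were seen. On simulated counts with 200 transcripts changed, 63710 transcripts were fitted. The fit found 26.5% of changes of 2-fold between cells and tissue, 75.7% of those of 4-fold and 76.3% of those of 8-fold. Of its calls, 0.855% were false. The simulation gave transcripts of like level the same spread and changed them by at most 8-fold. It thus modelled neither genes absent from a group nor a library standing apart for a gene. In the data, moreover, 47.1% of transcripts were called. The simulated rates may therefore not carry over to this comparison. Floors and intervals cover counting error only. Replicate pairs differed by more than read sampling, with chi-square values of 58.1 to 219 per degree of freedom.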

Additional observations from a re-analysis of the deposited data

How the results depend on the processing

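Of the 34 members called, 23 kept the call in all 6 fits that left out 1 library over the same transcripts, and 20 under each of the 16 alternatives that could test them (pseudocounts 0.5 and 5, no filter, a filter of 50, equal totals, TMM scaling, a replicate block, a robust prior, voom weights, summed transcripts and the 6 left-out libraries; the filter of 50 dropped 14 members). Equal totals moved the counts most, to 42 members higher and 8 lower, 10577 and 956 named genes, and 69 and 2 downstream genes. This scaling shifted the changes upward, so it put only the lower calls to a test. Higher calls made up 58.8% of the members' calls on the deposited scale and 84.0% at equal totals. Among all named genes, 4082 were higher and 2749 lower on the deposited scale, against 10577 and 956 at equal totals. With 1 library left out, 14 to 21 members rose and 11 to 12 fell, 2799 to 4500 named genes rose and 2302 to 2880 fell, and 16 to 30 downstream genes rose and 9 to 13 fell. With the replicate block, 19 members rose and 12 fell, 3889 and 2544 named genes, and 26 and 12 downstream genes; fgfr2, fgf18a and spryd7a lost their calls. Same-numbered libraries did not deviate together (correlations -0.063, -0.045 and -0.017), and differently numbered ones gave -0.028 to 0.058. Such values cannot show whether the numbers pair libraries, which the labels do not state.

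At equal totals the sign turned for HGFAC (2.12), spry1 (0.97), spry2 (1.79), SPRY3 (0.60), spry4 (2.52), fgf16 (1.53), fgf18a (0.30), fgf8b (1.62), vegfaa (2.41), fgfr1op2 (2.35), spryd4 (1.97), spryd7a (1.89), ERBB4 (0.076), fgfr1a (2.27), hrasa (0.70), ksr1b (0.26), dusp1 (0.48), dusp6 (2.53) and etv5a (0.86), all in log2 units. TMM scaling turned spred2a (-0.031) and kdrl (-0.000875), and summing transcripts turned dusp6 (0.073). With 1 library left out the sign varied for HGFAC (-1.17 to 1.1), spred2a (-0.24 to 0.42), spry4 (-0.33 to 0.20), fgf8b (-1.43 to 0.22), pdgfab (-0.26 to 0.54), vegfaa (-0.46 to 0.21), fgfr1op2 (-0.56 to 0.21), spryd3 (-0.071 to 0.51), kdrl (-0.093 to 0.33) and dusp6 (-0.17 to 0.20), none of them called. Fgf18a was also lost at pseudocount 0.5, with no filter and with a robust prior. The cause was not tested. Tissue counts of low members rest on few reads, which limits their folds.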
